A study of Mus musculus with 3 samples.

Results

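A set of 10 actin cytoskeleton genes was followed in bisulfite-sequenced mRNA: the cytoplasmic actins Actb and Actg1, the actin-binding proteins Cfl1, Pfn1, Tmsb10, Tmod3, Capzb, Tpm1 and Tpm3, and the exchange factor Trio. They were chosen by name, and each transcript identifier was paired with its gene symbol after the version number was dropped. These 10 genes had 12 listed transcripts, of 13224 genes and 15021 transcripts in all. Together they held 4629 listed cytosines, of 4450412 in the whole data set.

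Actin is a globular protein that assembles into filaments and comes apart again, and the filaments give a cell its cortex, its shape and its means of crawling. Profilin hands actin monomers to growing ends, thymosin sequesters monomers, cofilin severs and disassembles older filaments, capping protein and tropomodulin block filament ends, and tropomyosins lie along the filament side. In bisulfite sequencing an unmodified cytosine is deaminated and read as thymine, whereas 5-methylcytosine resists. A read that still shows cytosine is therefore counted as unconverted. 5-hydroxymethylcytosine resists too, and so may a cytosine protected by RNA structure, so an unconverted read does not by itself name a modification.

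All 3 samples belonged to 1 group: mouse embryonic stem cells of the J1 background with the genotype Tet1-/-,Tet2-/-,Tet3-/-, which lacks the enzymes that oxidise 5-methylcytosine. Cells with intact Tet genes were not analysed here, so each cytosine was compared with the background of its own library and not with another genotype. The cells had been cultured on a feeder layer of mouse embryonic fibroblasts, and the feeders were depleted by letting them attach to fresh dishes. Nothing in the labels says that the samples were separate cultures or clones, so nothing measured here gives the spread between cultures. The p-values of single cytosines reflect counting error alone, and those of whole mRNAs the spread between these samples, which may be technical.

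The 3 libraries, numbered 1 to 3 as in the labels and called replicates here, held 139884444 to 151362866 cytosine reads, and 1.41% to 1.53% of these were unconverted. That share is the background of each library. Transcript coverage differed between every pair of libraries by more than sampling noise, with a chi-square per degree of freedom of 38.0 to 71.2, so none was a second deposit of another. The 10 embryonic stem cell markers checked were listed, 8 of them with a testable cytosine and Esrrb and Nanog without, and took 0.529% ± 0.0129 (SD, n = 3) of the reads. Of 11 fibroblast markers 7 were listed, with 0.0522% to 0.0701% of the reads per library, and Dcn, Lum, Pdgfrb and Postn were not listed. The collagen genes Col1a1 and Col1a2 were read in every library, Col1a1 at 0.0169%, 0.0123% and 0.0102% of the reads and Col1a2 at 0.0156%, 0.0113% and 0.00966%, as were Col3a1, Thy1, Fn1, Vim and S100a4. Collagen reads were highest in replicate 1 and lowest in replicate 3. The share of actin reads that came from remaining feeder cells was not tested.

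Of the 12 transcripts, RefSeq letters for the 5′ end fitted 3 cytosine by cytosine, and 1 window of each is shown because it tells how positions are counted there. Over the series, 2624 of 3656 transcripts compared (71.8%) matched at every listed cytosine of their first 50 nt, with no shift allowed. Capitals mark the cytosines that the deposited lists hold, and the letters come from RefSeq (build GRCm38.p6).
Actg1 NM_009609.2, positions 10 to 39, chr11:120348446-120348475, minus strand: gCttaCaCtgCgCttCttgCCgCtCCtCCg
Pfn1 NM_011072.4, positions 21 to 50, chr11:70654601-70654630, minus strand: gtggCggtgCgagggCtgCtgCaCagCtaa
Trio NM_001081302.1, positions 18 to 47, chr15:28025802-28025831, minus strand: CtCgCtgCtgCCgCCggCgttCgtgatCgC

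In these windows every cytosine letter was a listed cytosine and no other letter was, so positions count from 1 at the 5′ end of the listed model. Tmod3, Cfl1 and Actb have no such match here, and their positions are given as deposited. The Actg1 model in the lists starts 11 nt downstream of the RefSeq start. Its letters were fitted with that shift, unlike those of Pfn1 and Trio and unlike the series-wide comparison. In the Actg1 window 1.00%, 1.32% and 0.799% of cytosine reads were unconverted in replicates 1, 2 and 3, and 1.41%, 1.03% and 1.17% in the Pfn1 window. None of the 13 Actg1 and 7 Pfn1 cytosines rose above background. The Trio window had 1 unconverted read among 127, 37 and 88 reads, and none of its 12 cytosines was deep enough to test.

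The actin genes held 4 cytosines with a high unconverted share, in Tmod3, Trio, Cfl1 and Actb, and 75 cytosines above background at any level. A cytosine was testable with at least 10 reads in all 3 libraries. Each library gave an exact binomial p-value, Fisher's method joined the 3, and a cytosine was above background at a Benjamini-Hochberg adjusted p below 0.05 across the 1639820 testable cytosines. It was a candidate site when its mean share was also at least 10% and lay above background in each library. The actin genes held 2179 testable cytosines. The 4 candidates among them stand beside a series-wide 0.0473%, and the 75 above background beside 0.499%. Candidates occurred in 4 of the 8 actin genes with a testable cytosine, against 6.65% of all such genes. The genes had been chosen with the 4 candidates already known, so this share is a description. Above background at any level were cytosines in 7 of the 8 genes, against 27.1% of all genes, which were not matched in number or depth of testable cytosines.

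The share of cytosines called at any level rose with depth. With 100 to below 1000 reads per library, 29 of 862 actin-gene cytosines were above background, against 1.91% of all cytosines of that depth. At 1000 reads or more the count was 40 of 396, against 11.3%, so the very deep cytosines of the actin genes were called about as often as others of that depth. With at least 100 reads and a mean share of at least 5%, 8 of 1258 passed, against 0.494%. The 75 calls were not independent sites: 37 had another call within 10 nt, and such neighbours are covered by the same reads.

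The count also depended on the error model. A beta-binomial test, which allows cytosines to differ from each other in background, called 17 of the 75, and a test on the highest of the 3 p-values called 16. A set of 12 of the 2179 passed the binomial, the beta-binomial and the highest-p tests, against 0.0302% of all testable cytosines. These were 5 in Actg1, 2 each in Cfl1 and Pfn1, and 1 each in Actb, Tmod3 and Trio. The 12 include the candidates Tmod3 3560, Trio 197 and Cfl1 106, known when the genes were chosen. All testable cytosines were not matched in depth, so the count is a description. Sites of the 12 outside the candidates and the highest cytosine of each gene are described below because of their values, which were seen first.

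**Figure D1:**
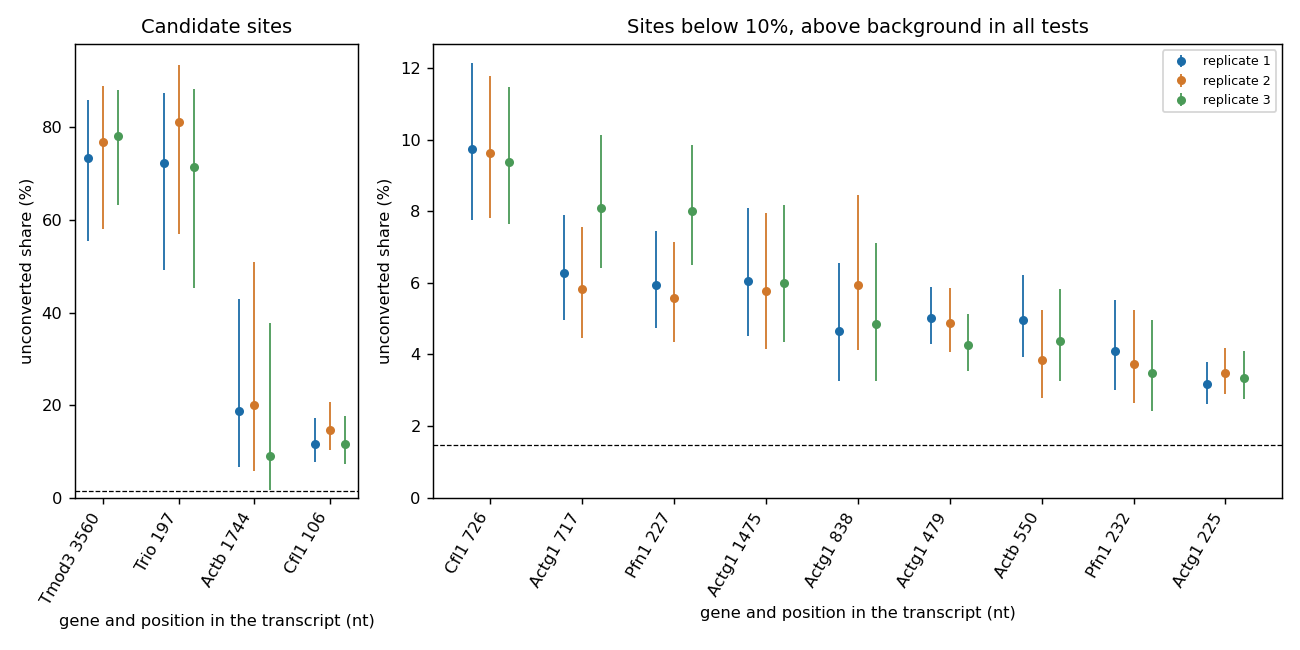
Unconverted share in percent at the 4 candidate sites (left) and at the other 9 cytosines that passed all 3 tests (right), by gene and transcript position. Points are single libraries, bars are 95% Wilson intervals, and the dashed line is the mean library background. Tmod3 3560 and Trio 197 lie above 70% in every library, and Cfl1 726 leads the lower sites at 9.38% to 9.73%.

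Actb and Actg1 encode the cytoplasmic beta- and gamma-actin, proteins that are nearly identical. Their mRNAs were among the most deeply read of all genes, Actg1 taking rank 13 and Actb rank 18 by share of reads. Actb (NM_007393.3) took 0.407%, 0.293% and 0.329% of all cytosine reads in replicates 1, 2 and 3. Actg1 took 0.435%, 0.378% and 0.390%. Replicate 1 was the highest for both. Read coverage is only a rough measure of mRNA abundance.

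Coverage along both actin mRNAs ran through the same peaks and troughs in every library. In Actb the highest cytosine was 384, with 9764, 7128 and 7660 reads. In Actg1 it was 371, with 12126, 10676 and 10261 reads. Position by position, Spearman's rho between pairs of libraries was 0.995 to 0.997 over at least 502 Actb cytosines, and 0.996 to 0.997 over 501 Actg1 cytosines. These points lie on the same transcript and share reads, so the coefficients are descriptions.

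**Figure D2:**
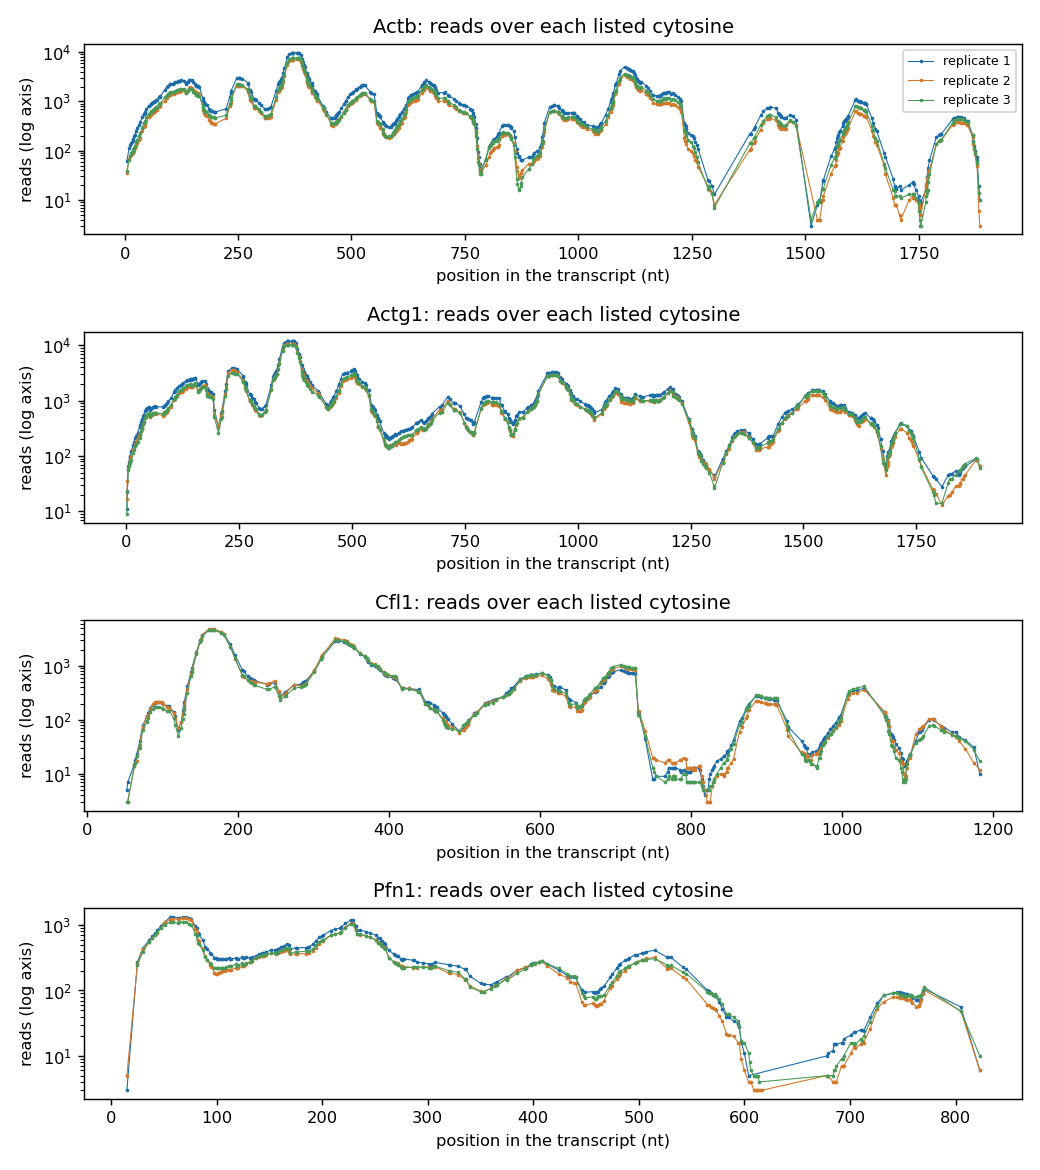
Reads over each listed cytosine (log axis) against transcript position in nt for Actb, Actg1, Cfl1 and Pfn1, 1 line per library. The 3 libraries follow the same profile, with peaks of 7128 to 12126 reads in the actins and a fall in Cfl1 just after position 726.

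The Actb mRNA as a whole had 1.39%, 1.33% and 1.29% unconverted reads, a mean of 1.34% ± 0.0475 (SD, n = 3). All other genes had 1.46% ± 0.0644, and Actb was lower in 3 of 3 libraries (exact two-sided sign-flip test, p = 0.25, the smallest that 3 libraries allow). With each testable cytosine weighted equally the direction turned, Actb standing at 1.50%, 0.0208 percentage points above the other genes. Of 484 testable Actb cytosines 21 were above background, 6 of 268 at 100 to below 1000 reads and 13 of 164 at 1000 or more.

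The Actb site that passed all tests was 550. It had 69 of 1393, 37 of 965 and 44 of 1007 reads unconverted, a mean of 4.39% ± 0.560 (adjusted p = 3.09e-26, exact binomial with Benjamini-Hochberg). All 3 libraries lay above the 1.51% of the 15 other listed cytosines within 25 nt. At the next listed cytosine downstream, 556, the summed reads fell from 3365 to 1339.

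Actb 844 and 852 lie close together in a shallower stretch. At 844 the counts were 23 of 336, 11 of 214 and 14 of 231, a mean of 6.02% ± 0.853. At 852 they were 22 of 295, 14 of 187 and 8 of 170, a mean of 6.55% ± 1.60. The other cytosines within 25 nt, leaving out those called above background, stood at 1.95% around 844 and 2.09% around 852. Both sites passed the binomial test (exact test, adjusted p = 1.38e-11 and 7.04e-12) and the beta-binomial test (adjusted p = 1.16e-04 and 4.16e-05). They did not pass the highest-p test, where their adjusted p was 0.555 and 1.

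The candidate Actb 1744 rests on few reads. It had 3 of 16, 2 of 10 and 1 of 11 reads unconverted, a mean of 15.9% ± 5.97 and a 95% Wilson interval over the summed reads of 7.65% to 31.1% (exact test, adjusted p = 0.0448). It lies in a trough of the profile, with a median of 537 reads 50 to 100 nt upstream and 1205 downstream. The 13 other listed cytosines within 25 nt had 18 of 515 reads unconverted, or 3.50%. The call was lost in the beta-binomial test (adjusted p = 0.137), with the transcript's own background (0.0506), and without replicate 1, 2 or 3 (0.774, 0.355 and 0.0590).

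Actg1 held no candidate and the most cytosines above background, 32 of 500. By depth these were 10 of 270 at 100 to below 1000 reads and 22 of 190 at 1000 or more. The mRNA as a whole stayed at 1.50%, 1.43% and 1.39% unconverted, a mean of 1.44% ± 0.0548. It was lower than the other genes in 3 of 3 libraries, with differences of -0.0366, -0.0208 and -0.0184 percentage points (exact sign-flip p = 0.25). Weighted equally, its cytosines stood at 1.53%, 0.0496 points above the other genes.

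Actg1 717 was the highest of the deep gamma-actin sites. It had 66 of 1053, 51 of 877 and 67 of 829 reads unconverted, a mean of 6.72% ± 1.20 (exact test, adjusted p = 1.73e-57). The 7 other listed cytosines within 25 nt had 1.23%. Actg1 1475 varied little between libraries, with 42 of 694, 34 of 590 and 36 of 601 reads, a mean of 5.93% ± 0.152 (exact test, adjusted p = 6.77e-29).

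Actg1 479 combined a low level with great depth. It had 150 of 2982, 110 of 2256 and 104 of 2441 reads unconverted, a mean of 4.72% ± 0.407 (exact test, adjusted p = 4.28e-74), and its 13 neighbours had 1.13%. Actg1 838 had 30 of 646, 28 of 472 and 24 of 496, a mean of 5.14% ± 0.694, beside 1.44% at the adjoining cytosine 839. Actg1 225 had 109 of 3447, 110 of 3162 and 95 of 2832, a mean of 3.33% ± 0.160. It passed the beta-binomial test narrowly (adjusted p = 0.0497).

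The highest mean in Actg1 was not a call. Position 1789 had 3 of 42, 2 of 24 and 2 of 20 reads, a mean of 8.49% ± 1.44 (exact test, adjusted p = 0.270), and its interval of 4.0% to 15.9% includes the levels of sites 717 and 1475.

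**Figure D3:**
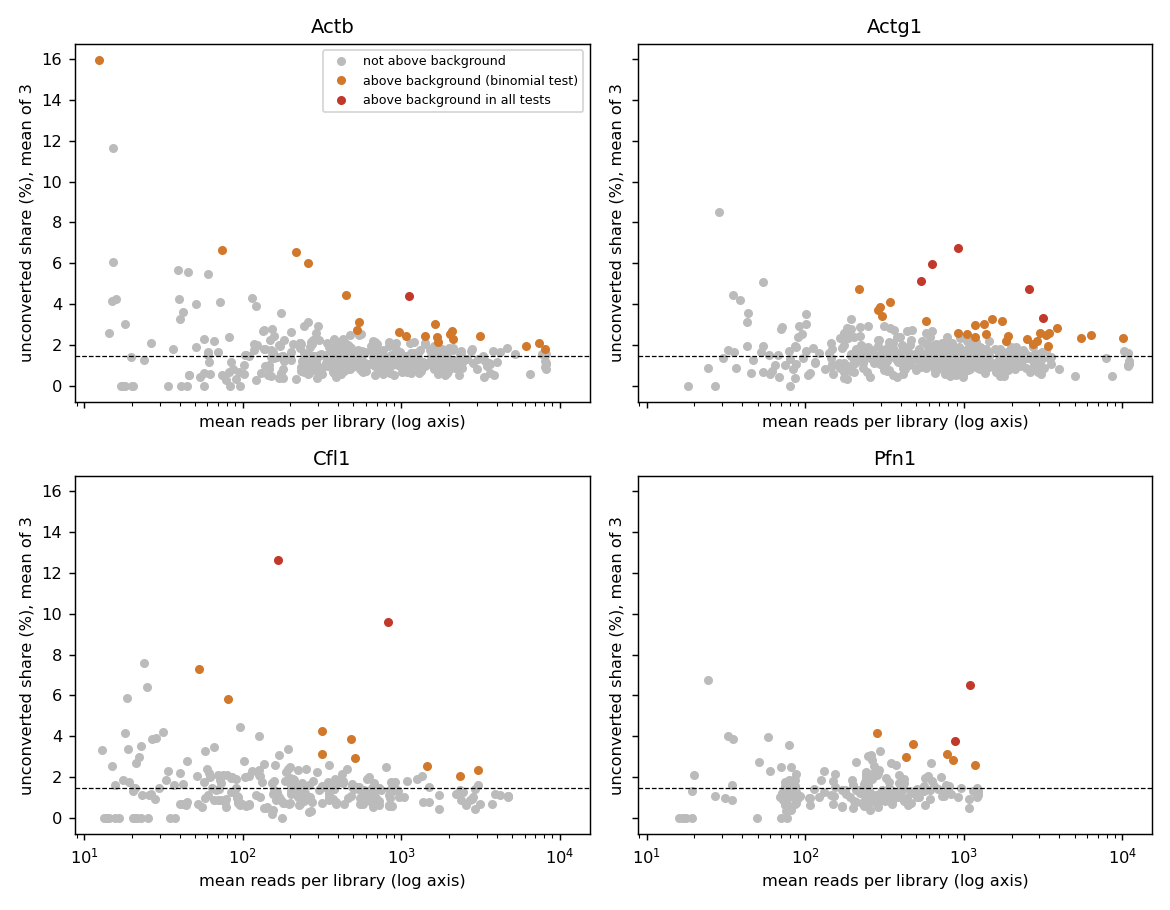
Mean unconverted share in percent against mean reads per library (log axis) for the testable cytosines of Actb, Actg1, Cfl1 and Pfn1. Colours mark cytosines not above background, above it in the binomial test, and above it in all 3 tests. Shallow cytosines scatter widely around the dashed background, and at 1000 reads levels near 2% are already called.

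The shared coding sequence allowed Actb and Actg1 to be compared cytosine by cytosine, a comparison added after the data were seen. Shifting Actg1 by 13 nt matched 331 listed cytosines, and the next best shift matched 163. Of the Actb cytosines at 101 to 1200, 280 of 329 (85.1%) had a partner, against 35 of 137 (25.5%) beyond 1200. Of 325 testable pairs 22 (6.77%) differed in the same direction in all 3 libraries (Fisher's exact test per library, combined by Fisher's method, Benjamini-Hochberg over the pairs). Actb was the higher in 9 and Actg1 in 13. None of the 22 passed on the highest of the 3 p-values, and 12 pairs were called without replicate 1.

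The pair with the lowest p was Actg1 717 with Actb 730. Actb 730 had 30 of 1042, 11 of 703 and 15 of 768 reads unconverted, 2.13% ± 0.675, against 6.72% ± 1.20 in Actg1 (adjusted p = 6.64e-12, Fisher's exact test combined). The ranges of the libraries did not overlap. Actb 844 went the other way: its partner Actg1 831 had 12 of 836, 8 of 605 and 6 of 665 reads, 1.22% ± 0.281, against 6.02% (exact test, adjusted p = 2.05e-08).

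At 851 and 852 of Actb the order switched between adjoining cytosines. Actb 852 stood at 6.55% and its partner Actg1 839 at 1.44% ± 0.314 (exact test, adjusted p = 4.44e-07). One base upstream Actb 851 stood at 2.10% ± 1.48 and its partner Actg1 838 at 5.14% (exact test, adjusted p = 0.0345). Actb 780 had 6.63% ± 0.897 against 1.44% ± 1.11 at Actg1 767 (exact test, adjusted p = 0.00240), though on 58 to 95 Actb reads.

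Some cytosines were above background in both mRNAs. Of the cytosines above background, 18 of 21 in Actb and 25 of 32 in Actg1 had a partner, and 6 pairs were above background in both. One of these 6 was called different: Actb 492 at 2.60% ± 0.313 against Actg1 479 at 4.72% (exact test, adjusted p = 4.60e-04). Reads from stretches that the mRNAs share almost letter for letter can be assigned to either, and how many were was not tested.

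**Figure D4:**
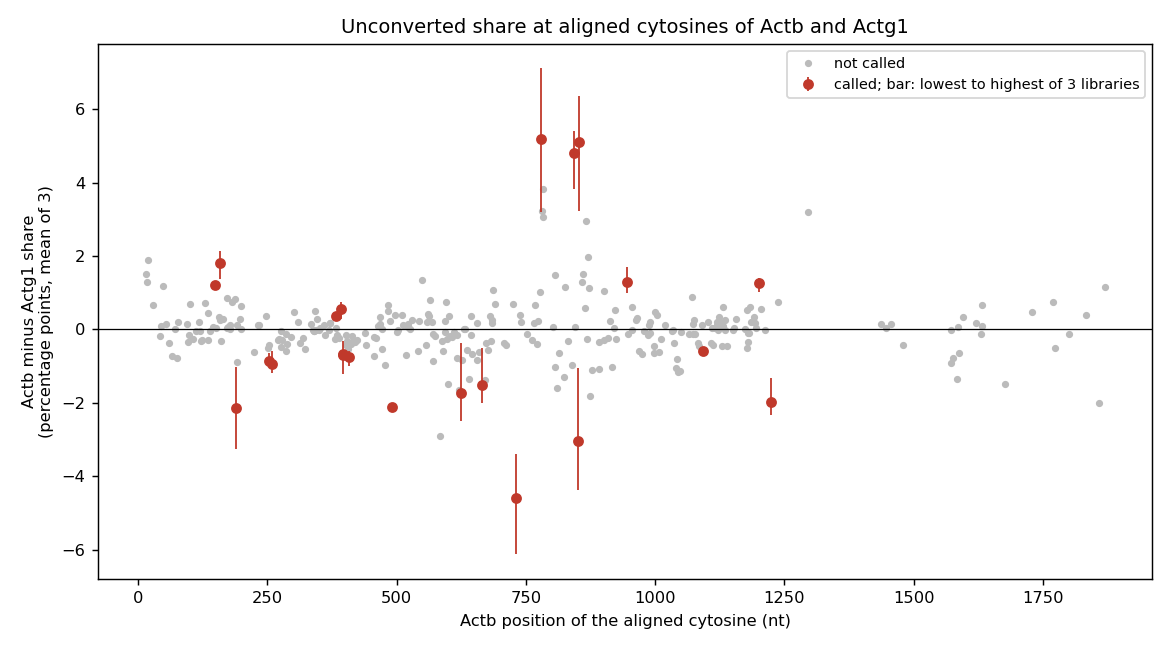
Difference in unconverted share, Actb minus Actg1 in percentage points (mean of 3 libraries), at 325 aligned cytosines by Actb position in nt. Red points are the 22 called pairs with bars from the lowest to the highest library, and grey points were not called. Actb 780, 844 and 852 lie near 5 points above 0, and Actb 730 lies 4.59 points below.

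Cfl1 (NM_007687.5) encodes cofilin, which severs filaments. It held 2 sites that stood well above their surroundings. Cfl1 had 1.42%, 1.30% and 1.26% unconverted reads, a mean of 1.33% ± 0.0809, lower than the other genes in 3 of 3 libraries, with differences of -0.115, -0.150 and -0.144 percentage points (exact sign-flip p = 0.25). Here too the direction turned with equal weights, to 1.57%, 0.0881 points above the other genes. Of 277 testable cytosines 11 were above background, 6 of 158 at 100 to below 1000 reads and 3 of 30 at 1000 or more.

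The candidate Cfl1 106 had 21 of 180, 26 of 177 and 17 of 147 reads unconverted. That is a mean of 12.6% ± 1.78, with a 95% Wilson interval over the summed reads of 10.1% to 15.9% (exact test, adjusted p = 2.64e-33). The 16 other listed cytosines within 25 nt had 126 of 7351 reads, or 1.71%. The nearest listed cytosines had 556 summed reads upstream and 497 downstream, against 504 at the site. The wider stretch was uneven, with 605 summed reads at 93, 187 at 121 and 14242 at 162.

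Cfl1 726 fell just short of the 10% minimum and was the more precisely measured. It had 69 of 709, 82 of 853 and 85 of 906 reads unconverted, a mean of 9.58% ± 0.178 (exact test, adjusted p = 5.72e-105). Its interval of 8.46% to 10.8% includes the minimum, so its place outside the candidates is within counting error. The cytosine 1 nt upstream, 725, had 10 of 731, 11 of 874 and 7 of 914. Position 726 is also the last before a sharp fall: summed reads went from 2468 at 726 to 410 at 730.

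The remaining Cfl1 calls were lower or shallower. Cfl1 739, beyond that fall, had 1 of 45, 5 of 63 and 6 of 51 reads, a mean of 7.31% ± 4.80, and its call was lost in the beta-binomial test (adjusted p = 0.0616). Cfl1 634 had a mean of 4.26% ± 0.918.

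Pfn1 (NM_011072.4) encodes profilin, the monomer carrier. It had 1.64%, 1.51% and 1.53% unconverted reads, a mean of 1.56% ± 0.0666. That was higher than the other genes in 3 of 3 libraries by 0.0626 to 0.123 percentage points (exact sign-flip p = 0.25). With each testable cytosine weighted equally the difference shrank to 0.000723.

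Pfn1 held no candidate and 8 cytosines above background of 211. Pfn1 227 had 71 of 1193, 59 of 1057 and 82 of 1023 reads unconverted, a mean of 6.52% ± 1.31 (exact test, adjusted p = 5.32e-65). Replicate 3 was the highest, at 8.02%. Its Wilson interval overlapped those of the other libraries, though an overlap is no test of a difference. Between 227 and the next call lies 229, with 6 of 1181, 3 of 1055 and 6 of 1020, so the raised cytosines were not a continuous run. Pfn1 232 had 40 of 979, 31 of 831 and 29 of 833, a mean of 3.77% ± 0.304 (exact test, adjusted p = 3.02e-12).

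Nearer the 5′ end Pfn1 showed a cluster of low calls. Positions 74, 80, 81, 87 and 95 had means of 2.61%, 2.83%, 3.14%, 3.64% and 4.13%. All of them were called in the binomial test, and none passed all 3 tests. At 95, the highest, the beta-binomial test gave an adjusted p of 0.139. Position 82, which was not called, stood at 2.68%. The other cytosines within 25 nt, leaving out those called above background, stood at 1.41% around 74 and 1.71% around 95. The library background was 1.41% to 1.53%, and whether the stretch as a whole was raised was not tested. Summed reads fell along it, from 3530 at 74 to 851 at 95. The highest mean in Pfn1, 6.76% ± 0.461 at 595, came from 5 of 73 reads and was not above background (exact test, adjusted p = 1).

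Tmsb10 encodes thymosin beta-10, a small monomer-sequestering protein. It was listed as 2 transcripts, NM_001039392.2 and NM_025284.4, of 3 RefSeq models, and had 57 testable cytosines. The gene had 1.49%, 1.49% and 1.35% unconverted reads, a mean of 1.44% ± 0.0790, lower than the other genes in 2 of 3 libraries (exact sign-flip p = 0.5). Position 125 of NM_025284.4 had 22 of 793, 24 of 863 and 25 of 867 reads unconverted, a mean of 2.81% ± 0.0612 (exact test, adjusted p = 9.64e-04). It did not pass all 3 tests. The highest mean, 5.93% ± 5.59 at 98 of NM_001039392.2, came from 3 of 51 reads (exact test, adjusted p = 1).

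Tmod3 (NM_016963.2) encodes tropomodulin 3, the widely expressed cap of the slow-growing filament end. It carried the highest unconverted share among the actin genes, on an mRNA that took only 0.00571% to 0.00612% of the reads. Position 3560 had 22 of 30, 20 of 26 and 32 of 41 reads unconverted. That is 73.3%, 76.9% and 78.0%, a mean of 76.1% ± 2.46, with an interval over the summed reads of 66.9% to 83.6% (exact test, adjusted p = 5.55e-107). The 6 other listed cytosines within 25 nt had 4 of 503 reads unconverted, or 0.795%.

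The share of the whole mRNA was raised too. Tmod3 had 1.78%, 1.76% and 1.84% unconverted reads, a mean of 1.80% ± 0.0397, higher than the other genes in 3 of 3 libraries (exact sign-flip p = 0.25). Without position 3560 the mean was 1.51%, a difference of 0.0508 percentage points. The other 233 testable cytosines gave no call.

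Tmod3 3560 lies at the end of what was read. The listed cytosine upstream, 3553, had 30, 26 and 41 reads, as many as the site. The one downstream, 3572, was the last of the transcript, with 5, 3 and 5 reads, none unconverted. Of 234 testable Tmod3 cytosines 79 had no unconverted read in any library. A count of 0 at the minimum of 10 reads in a library allows a share of up to 30% there.

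Capzb encodes the beta subunit of capping protein, which blocks the fast-growing filament end. It could not be tested. NM_001037761.2 was listed in replicate 1 alone, with 7 cytosines of at most 5 reads. NM_001271405.1 had 2 cytosines in replicate 1 and 3 in replicate 3, and neither transcript was listed in replicate 2.

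The tropomyosins, which stiffen filaments and gate access for myosin and cofilin, were as thinly read. Tpm1 (NM_001164249.1, of 10 RefSeq models) had 440, 681 and 485 cytosine reads and 10 testable cytosines. Its gene share was 2.73%, 1.32% and 1.03%, a mean of 1.69% ± 0.907. These shares rest on 12, 9 and 5 unconverted cytosine reads, and the higher value of replicate 1 was not tested. Over the cytosines with at least 10 reads in all 3 libraries the mean was 1.14%. Tpm1 198, its highest cytosine, had 1 of 14, 2 of 26 and 0 of 20 reads, a mean of 4.95% ± 4.29 (exact test, adjusted p = 1).

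Tpm3 (NM_001293749.1, of 7 RefSeq models) had 128, 84 and 124 reads and no testable cytosine. Of these 3, 2 and 0 were unconverted. Low read numbers do not show that these mRNAs were scarce. Over all genes, 71.8% of those with 1 RefSeq model had a testable cytosine, 66.2% with 2 and 59.2% with 3 or more, and the median summed coverage fell from 9493 to 3227 and 1841. Capzb has 3 models. Whether reads common to several models were dropped was not tested.

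Trio (NM_001081302.1) encodes a large guanine nucleotide exchange factor. Its reads were spread thinly over a long mRNA, with a median of 6 to 7 reads per listed cytosine, and 406 cytosines were testable. Position 197 had 13 of 18, 13 of 16 and 10 of 14 reads unconverted. That is 72.2%, 81.2% and 71.4%, a mean of 75.0% ± 5.46, with an interval over the summed reads of 61.2% to 85.1% (exact test, adjusted p = 3.73e-49).

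The 23 other listed cytosines within 25 nt of Trio 197 had 18 of 1005 reads unconverted, or 1.79%. The closest, 195 and 201, had 1 of 48 and 0 of 51 summed reads. Unlike at Tmod3 3560, the nearest cytosines on both sides had as many reads as the site. No other Trio cytosine was called, and the mRNA as a whole had 1.41%, 1.50% and 1.32%, a mean of 1.41% ± 0.0862. It was lower than the other genes in 2 of 3 libraries (exact sign-flip p = 0.5). Libraries resembled each other less along Trio than along the actins, with a Spearman's rho of coverage of 0.721 to 0.798 over at least 1445 shared cytosines.

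**Figure D5:**
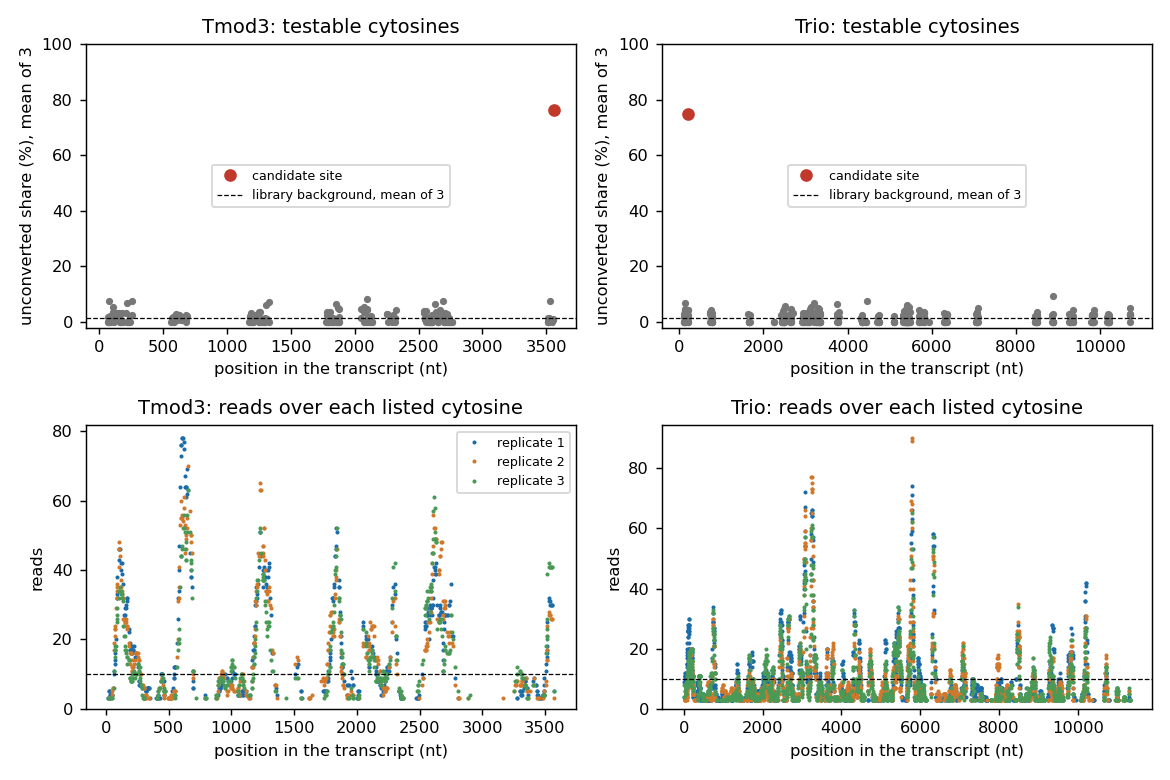
Tmod3 (left) and Trio (right). Upper panels give the mean unconverted share in percent of testable cytosines by transcript position in nt, and lower panels the reads over each listed cytosine in each library, with a dashed line at the minimum of 10. One cytosine per mRNA stands near 75% and the rest lie below 10%; the Tmod3 site is near the last listed position and the Trio site near the first.

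No difference between libraries was detected at the candidate sites. An exact conditional test gave p = 0.953 for Tmod3 3560, 0.769 for Trio 197, 0.642 for Cfl1 106 and 0.740 for Actb 1744. Over all 775 candidates 0 (0%) differed between libraries after Benjamini-Hochberg adjustment, and 23 did at an unadjusted p below 0.05, none of them in the actin genes. Over the 75 cytosines above background 7 had an unadjusted p below 0.05, and the lowest adjusted p was 0.506. At 14 to 41 reads per library only large differences could have been detected at the Tmod3 and Trio sites.

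A group of 3 of the 12 sites that passed all tests lie at a step in coverage. At Tmod3 3560, Cfl1 726 and Actb 550 the nearest listed cytosine downstream, within 12 nt, had less than 50% of the site's reads: 13.4%, 16.6% and 39.8%. Among all testable cytosines with a listed neighbour that near, 0.862% had such a step on either side, and among the 2177 of the actin genes 30 did (1.38%). Across the series the step was present at 29 of the 489 cytosines that passed all 3 tests (5.93%). The measure was chosen after these profiles were seen, and the part of read ends in the shares was not tested. The other 9 sites, Trio 197, Cfl1 106 and Actg1 717 among them, kept at least 56.9% of their reads at the neighbouring cytosines.

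Other genes of actin regulation were compared by counts. Of 83 genes listed for nucleation, disassembly, capping, side binding, myosin II, adhesion and guanine nucleotide exchange, 78 were listed in the data and 67 had a testable cytosine. Among their 20109 testable cytosines 6 were candidates, or 0.0298%, against 0.0473% of all cytosines. By gene, 5 of the 67 (7.46%) held a candidate, against 6.65% of all genes, so the counts lay near those of the series. The median unconverted share of a gene was 1.45%, beside 1.46% over all genes and 1.44% over the members.

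The 6 candidates lay in 5 genes. Fscn1, which encodes the filament bundler fascin, had 37 of 154, 15 of 93 and 21 of 120 reads unconverted at 866, a mean of 19.2% ± 4.22 (exact test, adjusted p = 2.82e-52). Wasf2, an activator of branched nucleation, had 2, with means of 11.5% ± 3.87 on 68 reads at 2053 and 14.7% ± 10.4 on 38 reads at 3146. Actn1, an alpha-actinin that cross-links filaments, had 10.1% at 1276. Iqgap1, a scaffold protein that binds actin, had 13.0% ± 8.37 at 916, and the exchange factor Vav2 had 10.8% ± 6.43 at 390. Libraries spread widely at 3 of these sites, from 8.33% to 26.7% at Wasf2 3146, from 3.70% to 20.0% in Iqgap1 and from 4.55% to 17.4% in Vav2. These sites rest on 38, 80 and 74 summed reads, and the exact conditional test detected no difference between libraries there.

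No candidate was found in the 14 testable nucleation genes, the 10 of disassembly and monomer binding or the 5 of myosin II. The same held for the 3 testable adhesion genes, the 2 of capping and severing and the 2 other actins. Candidates occurred in 6.65% of all genes, so classes this small may hold none, and a difference was not tested. The nucleation and myosin II classes had 20 of 3323 and 42 of 3618 cytosines above background at any level. Over the 67 genes it was 129 of 20109 (0.642%), against 0.499% of all cytosines, in 31 genes (46.3%), against 27.1% of all genes. The genes were not matched to all genes in the number or depth of their testable cytosines. The 8 testable exchange factors other than Trio held the Vav2 site alone, on 74 reads.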

How the data were processed

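The authors deposited 1 list per library, with the transcript, the position, the coverage and the unconversion ratio of each cytosine with at least 3 reads. Coverage is a read count, and the unconversion ratio is a fraction from 0 to 1, per the file headers. Multiplying them gave whole numbers of unconverted reads within 1e-06. The authors mapped reads with BSMAP to build mm9, per the submitters' processing notes, and of versions, filters and strand handling nothing is stated: not given in the sources used here. Per the labels' protocols, poly(A)+ RNA was fragmented for 3 min to about 250 nt and read as 100 nt paired ends after 12 PCR cycles. Without molecular identifiers, intervals and limits cover counting error only.

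Of 15021 transcripts 14932 matched a gene symbol in the RefSeq table. Cytosines with at least 10 reads in all 3 libraries were tested by a one-sided exact binomial test against the background of each library, with the 3 p-values joined by Fisher's method and Benjamini-Hochberg adjustment over all of them. Gene shares used an exact two-sided sign-flip test over the 3 libraries. Only the binomial cytosine test was checked on simulated reads, with every cytosine at the library background apart from a set raised to known shares. Such reads lack differences in background between cytosines, so the check does not give the error rate in these data. Median coverage of testable cytosines was 33, 30 and 29 reads. Intervals are 95% Wilson intervals, and 3 unconverted reads is the limit used for a count of 0. The sites named are the candidates, the highest cytosine of each gene, candidates in the pathway list, and sites chosen after their values were seen. Alternatives changed the coverage minimum, the share minimum, the background, the error model, the combination, the adjustment and the libraries. Members and gene lists were chosen with earlier results of these data known. Python 3.11.15, numpy 2.4.6, scipy 1.17.1, pandas 2.3.3 and matplotlib 3.10.9 were used.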

Additional observations from a re-analysis of the deposited data

How the results depend on the processing

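The 4 candidates in the actin genes became 2 at a minimum of 20 reads, 2 at a mean share of 20% and 14 at 5%. They became 3 without any 1 library. Tmod3 3560 and Cfl1 106 passed the test at every setting that could test them, and Trio 197 could not be tested at 20 reads. Cfl1 106 at 12.6% lies under the 20% minimum. The 75 cytosines above background became 16 with the highest p-value, 17 with the beta-binomial test and 35 with Bonferroni adjustment, and 53 to 61 without 1 library. The 6 candidates in other actin-cytoskeleton genes became 0 at 20%, 59 at 5%, 1 with the highest p-value, 3 with the beta-binomial test and 2 with Bonferroni adjustment, and 5 to 7 without 1 library.

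Members with a lower share than the other genes in every library numbered 3, and 0 with cytosines weighted equally, and 3 to 5 without 1 library. Those with a higher share numbered 2, and 4 with cytosines weighted equally, and 2 to 3 without 1 library. The 22 differing Actb and Actg1 pairs became 0 with the highest p-value and 12 to 19 without 1 library. The causes were not tested. No paired analysis was possible because the samples form 1 group. Depth limited most genes: at the median of 29 to 33 reads, a count of 0 allows 9.09% to 10.3%.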

Other observations

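The muscle and smooth muscle actin markers Acta1, Acta2, Actc1, Actg2, Tagln and Cnn1 were all listed and together took 0.0185% ± 0.00105 (SD, n = 3) of the cytosine reads. Acta1 and Actg2 had no testable cytosine, and none of the 421 testable cytosines of the other 4 genes was above background. Over all testable cytosines the share above background was 0.499%, and a difference from it was not tested.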
